A study of Mus musculus with 24 samples.

Results

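The metallothionein locus holds Mt1 and Mt2 side by side on mouse chromosome 8, and its open chromatin was followed here in transplanted blood stem and progenitor cells. Its members were all regions of the deposited accessibility table that lie in a 100 kb interval around both genes (build mm10), which gave 3 of 13910 regions, at the starts of Mt2, Mt1 and Nup93. Marrow from WT CD45.1 donors had been placed in young CD45.2 mice that were either WT or IκB–, so the sorted cells were of WT donor genotype in every group and only the host differed. The labels do not describe the genetic change behind the name IκB–. After 13 to 15 weeks, 4 donor subsets were sorted from femur and tibia marrow, all lineage-negative, Sca1-positive and high in cKit: MPP4 (Flt3+), and, within the Flt3– cells, MPP2 (CD150+ CD48+), MPP3 (CD150– CD48+) and HSC, whose gate the labels write as CD150– CD48–. Long-term HSC are usually sorted as CD150+ CD48–, so the gate may be misprinted, and which cells the HSC values describe is uncertain to that extent. Each of the 8 groups had 3 libraries of 500 to 1500 cells, made by ATAC-seq, in which the transposase Tn5 cuts and tags DNA where chromatin is open.

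Metallothioneins are small cysteine-rich proteins that bind zinc, copper and cadmium and take part in metal storage and in the defence against oxidants. Mt1 and Mt2 are transcribed in most tissues and are induced by metals through Mtf1, a zinc-finger factor that binds metal response elements near their starts, and also by glucocorticoids, inflammation and oxidative stress. Mt3 and Mt4, the neighbouring family members, are known mainly from brain and from stratified epithelium. Nup93, a scaffold protein of the nuclear pore, is an unrelated neighbour that most cells use. Accessibility is not expression, and no RNA was measured here.

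The bases at both metallothionein starts are shown because they hold metal response element cores that lie in or beside the measured regions. The Mt1 region, chr8:94178910-94179276, is 367 bp long and spans the start that RefSeq's promoter table uses, 94179089, from -179 to 187 bp. RefSeq's gene table begins Mt1 further upstream, at 94178883, before the region starts, so every Mt1 position given here is relative to the former start. The Mt2 region, chr8:94172557-94172774, is 218 bp long and spans the start at 94172618, from -61 to 156 bp. Both genes lie on the plus strand, and the runs are 5′ to 3′ from RefSeq's promoter table for GRCm38.p6, with metal response element cores in capitals.
Mt1, 250 bases before the start (chr8:94178839-94179088): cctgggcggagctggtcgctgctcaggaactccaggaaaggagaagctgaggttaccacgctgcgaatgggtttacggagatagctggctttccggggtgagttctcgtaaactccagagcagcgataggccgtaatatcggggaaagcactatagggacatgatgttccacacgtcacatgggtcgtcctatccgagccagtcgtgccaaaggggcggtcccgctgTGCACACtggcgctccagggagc
Mt1, first 30 bases from the start (chr8:94179089-94179118): tcTGCACTCcgcccgaaaagTGCGCTCggc
Mt2, 250 bases before the start (chr8:94172368-94172617): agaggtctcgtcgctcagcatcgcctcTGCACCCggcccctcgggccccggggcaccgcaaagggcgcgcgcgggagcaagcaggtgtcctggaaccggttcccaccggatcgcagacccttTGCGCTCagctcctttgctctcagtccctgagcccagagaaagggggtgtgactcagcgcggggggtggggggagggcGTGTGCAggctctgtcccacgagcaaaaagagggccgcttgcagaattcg
Mt2, first 30 bases from the start (chr8:94172618-94172647): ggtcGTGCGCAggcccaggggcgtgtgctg

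The core was searched on both strands as TGCACNC and TGCGCNC in 300-base windows, 250 bases before and 50 after a start. The Mt1 window held 3 cores, and all 3 fell inside the accessible region. The Mt2 window held 4, of which 2 fell inside its shorter region and 2 lay upstream of it. The windows left out 138 of the 367 bp of the Mt1 region and 107 of the 218 bp of the Mt2 region. Those bases were not searched, so every count inside a region, here and below, is for its searched part only. Among 32851 promoter windows, 25.7% held at least 1 core of either form, 1.97% held 3 or more and 0.517% held 4 or more. TGCACNC alone was in 12.6% of windows and TGCGCNC in 15.4%. The Mt3 and Mt4 windows held 1 core each, and the Nup93 window held 0.

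Other elements differed between the neighbouring starts. GC boxes (GGGCGG), which Sp1-type factors bind, occurred 3 times at Mt1, with 2 inside the region and 1 of those sharing a base with a metal response core, and 0 times at Mt2, against 35.7% of windows with at least 1. Mt2 held 1 antioxidant response core (TGACNNNGC), upstream of its region, and Mt1 held 0, against 12.4% of windows. Neither held an E-box (CACGTG, 7.15% of windows), a STAT site (TTCNNNGAA, 8.30%), an NF-κB site (8.46%) or a full palindromic glucocorticoid response element (0.0091%). A match describes letters only, and a missing match says only that these letters are not in this window. Each metallothionein window held 24 CpG dinucleotides, above the median of 7, and the Nup93 window held 28.

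The interval holds 8 annotated genes, and the open regions sat at the starts of 3. Mt3, Mt4, the long noncoding RNA Gm39228 and a ribosomal protein pseudogene had no region within 1 kb of an end. The end of another long noncoding RNA, Gm39227, lay 902 bp from the Mt2 region. The Nup93 region, chr8:94214342-94214787, spans its start from -222 to 223 bp. The nearest regions outside the interval lay 31335 bp below its lower edge, at Bbs2, and 133444 bp above its upper edge, so small shifts of either edge would give the same members.

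**Figure D1:**
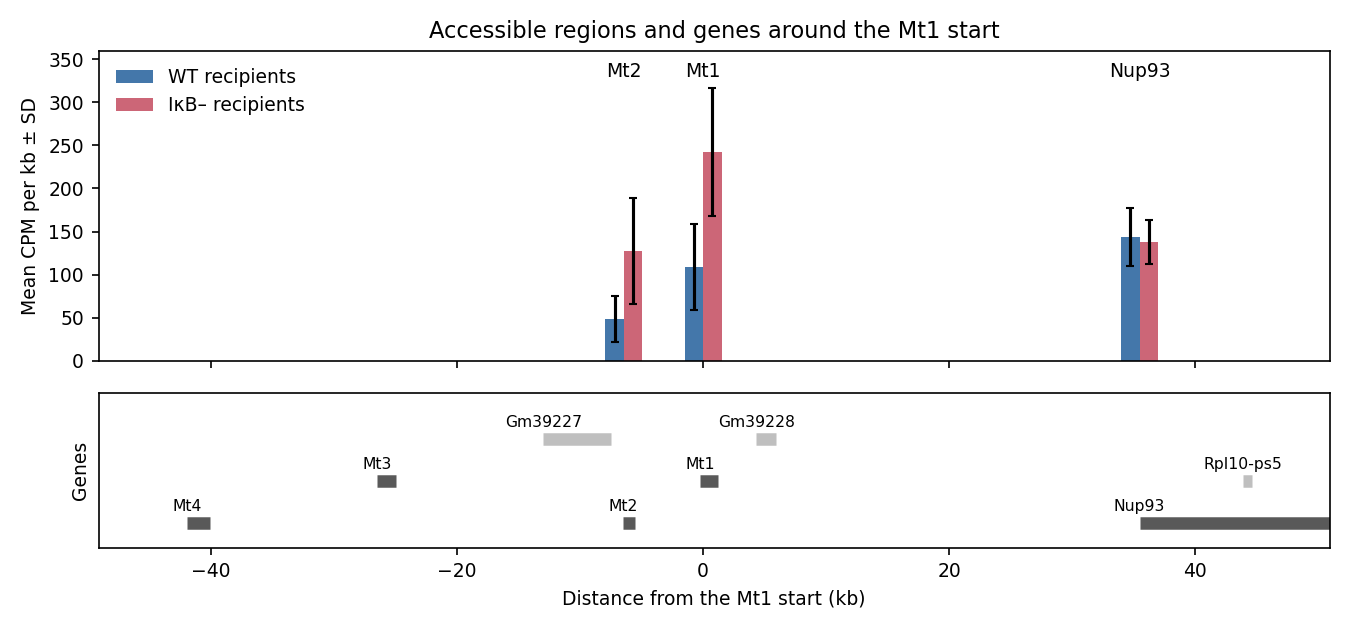
Accessibility of the 3 regions of the locus drawn by distance from the Mt1 start, with mean accessibility per kilobase (CPM per kb, error bars SD over replicates) for WT and IκB– recipients; bars are centred near the regions but drawn wider than them, and gene bodies are below. Mt1 and Mt2 are higher in IκB– recipients and Nup93 is at about the same level in both.

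Depth sets the precision of every value. Libraries held 121599 to 963699 counts in regions (WT recipients 150590 to 505665, IκB– recipients 121599 to 963699), and 61.1% to 73.8% of the nuclear counts lay within 1 kb of a gene end. Replicates 2 and 3 of WT MPP3 differed by about the sampling noise alone (a chi-square test over 13126 regions gave 1.005 for each degree of freedom and p = 0.348), so they were summed and counted as 1 sample, leaving 23 replicates. Replicate 3 of IκB– HSC stood apart from its group, with the same quantity at 4.12 and 3.01 against the others, and 1.40 between those. Replicate 1 of WT MPP4 stood apart in a like way (2.61 and 2.60, against 1.41), as did, by less, replicate 1 of IκB– MPP2 (3.01 and 2.30, against 1.74) and of IκB– MPP3 (3.49 and 2.71, against 2.03); this quantity also grows with depth. The labels do not say whether replicates are separate mice, so p-values measure the spread between these samples, which may be technical. Of 11 genes used as markers of the sorted cells, 6 had a region, with a summed level of 266 to 466 (median 368) CPM (counts scaled to a library total of 1e6, after TMM normalisation) in WT and 293 to 471 (median 437) in IκB– recipients. Ly6a, Ptprc, Slamf1, Cd48 and Gata2 had none. No region lay at any of 6 myeloid, 4 B cell, 4 T cell or 5 stromal and endothelial marker genes. Of 6 erythroid genes, 1 had a region (Epor, 19.0 to 73.4 CPM with a median of 43.0 in WT, and 0 to 61.4 with a median of 24.7 in IκB– recipients). Of 4 megakaryocyte genes 2 did (57.3 to 118, median 73.0, and 22.2 to 125, median 63.2). The medians of the erythroid and megakaryocyte markers were thus lower, and that of the sorted-cell markers higher, in IκB– recipients. All 3 medians differed between the recipient types compared below, but the ranges overlapped and these differences were not tested. The part of other cells in the results below was not tested.

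The locus was chosen by the recipient difference of the Mt1 region in MPP3 and on average over the subsets, so all recipient values here are a description without a test. In HSC, the normalised levels were 67.3, 50.8 and 33.0 CPM in WT recipients and 55.1, 89.3 and 88.7 CPM in IκB– recipients. In MPP2 they were 49.0, 48.5 and 16.5 CPM against 52.8, 132 and 80.1 CPM. The HSC groups overlapped, while each MPP2 replicate from an IκB– recipient lay above every WT one, though the closest pair differed little. In MPP3 the levels were 26.6 and 23.0 CPM (the second from the summed libraries) against 99.5, 131 and 103 CPM. In MPP4 they were 69.5, 20.9 and 33.4 CPM against 65.3, 60.8 and 108 CPM. MPP3 had the widest gap, and in MPP4 the groups overlapped only through WT replicate 1, the highest of all WT replicates and a library that stood apart.

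Few reads stand behind these levels. Mt1 was covered by 3 to 23 counts in a WT library and by 8 to 104 in an IκB– library. The lowest, 3 counts in WT MPP2 replicate 3, is 16.0 CPM of the raw total with an exact 95% binomial interval of 3.31 to 46.9. The highest, 104 counts in IκB– MPP3 replicate 1, is 108 CPM of the raw total with an interval of 88.2 to 131. Such intervals cover counting error only. Over all libraries Mt1 had 125 counts in WT and 389 in IκB– recipients, a depth-scaled ratio of 2.44 with a counting interval of 1.99 to 3.01.

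Group means of Mt1 were 50.4 ± 17.1 CPM (SD, n = 3) in HSC, 38.0 ± 18.6 (n = 3) in MPP2, 24.8 ± 2.54 (n = 2) in MPP3 and 41.3 ± 25.3 (n = 3) in MPP4 of WT recipients. From IκB– recipients (n = 3 each) MPP3 had 111 ± 17.4 CPM, MPP2 88.3 ± 40.3, MPP4 78.0 ± 26.0 and HSC 77.7 ± 19.6. All 4 IκB– groups thus stood above all 4 WT groups, and MPP3 was at opposite ends of the order: highest in IκB– and lowest in WT recipients. Between neighbours in that order, only IκB– HSC and WT HSC differed by more than the larger of their SDs (27.4 against 19.6 CPM), and their replicates overlapped. The fitted log2 difference, IκB– minus WT, was highest in MPP3 at 2.15 ± 0.39 (SE), followed by MPP4 at 1.11 ± 0.42, MPP2 at 0.90 ± 0.37 and HSC at 0.66 ± 0.43, and averaged 1.20 ± 0.20. Single libraries moved these values. Without IκB– HSC replicate 3 the HSC value was 0.50 and the mean 1.17. The HSC value was 0.43 without WT HSC replicate 3 and 0.87 without WT HSC replicate 1. The MPP4 value was 1.59 without WT MPP4 replicate 1, with a mean of 1.33, and 0.71 without WT MPP4 replicate 2. The MPP2 value was 1.24 without IκB– MPP2 replicate 1 and 0.64 without IκB– MPP2 replicate 2. The MPP3 value was 2.25 without IκB– MPP3 replicate 1 and 2.04 without IκB– MPP3 replicate 2. MPP3 stayed highest in these fits, while the order of the other subsets depended on single libraries. Whether the MPP3 value exceeds those of the other subsets was not tested, since the MPP3 value took part in the choice of the locus.

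**Figure D2:**
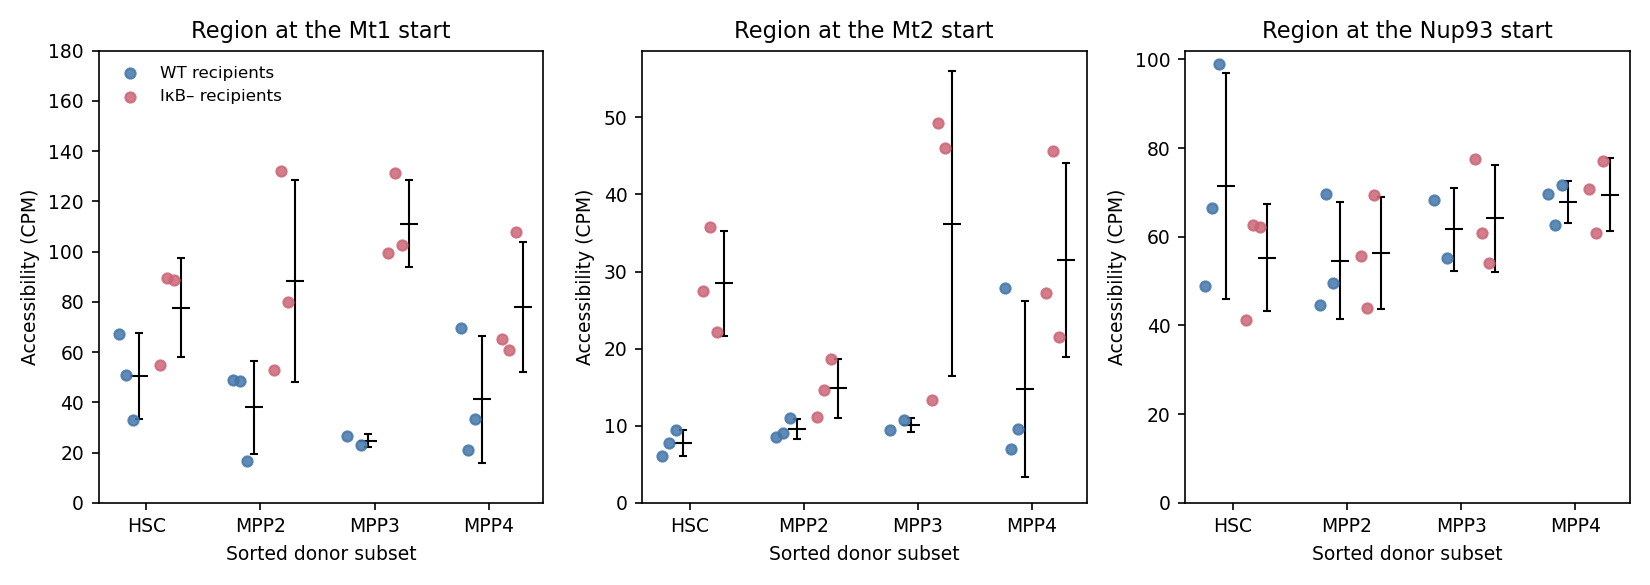
Normalised accessibility (CPM) of the Mt1, Mt2 and Nup93 regions in each replicate by subset and recipient type, with a horizontal line at each group mean and error bars of 1 SD. At Mt1 the MPP3 replicates from IκB– recipients sit between 99.5 and 131 CPM and those from WT recipients at 23.0 and 26.6 CPM.

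The Mt2 region was the weaker of the pair and ran the same way. Its levels in HSC were 6.11, 7.82 and 9.43 CPM in WT recipients and 27.5, 35.7 and 22.2 CPM in IκB– recipients. In MPP2 they were 8.52, 9.09 and 11 CPM against 11.1, 14.7 and 18.7 CPM. The HSC groups were well apart and the MPP2 groups just apart. In MPP3 the levels were 9.48 and 10.7 CPM against 13.4, 49.2 and 46.0 CPM. In MPP4 they were 27.8, 6.95 and 9.55 CPM against 27.2, 45.6 and 21.6 CPM. Again WT MPP4 replicate 1 was the high WT replicate and the only one to overlap the IκB– range of its subset.

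Mt2 counts were very low, at 1 to 5 per library in WT and 2 to 21 in IκB– recipients, and the region passed the filter on low counts only through IκB– replicates: 3 of those and 0 WT replicates reached its level of 35.2 CPM. A region kept in this way had to differ, so its difference supports nothing. In HSC the ratio of summed counts, 13 against 5, was 3.40 after depth scaling with a counting interval of 1.14 to 12.2. In MPP2 it was 1.51 (0.636 to 3.84), in MPP3 2.78 (1.46 to 5.72) and in MPP4 2.24 (0.966 to 5.78). These intervals cover counting error only, and nothing is read from whether they include equal levels. The fitted log2 differences were 1.74 ± 0.81 (SE) for HSC, 1.69 ± 0.60 for MPP3, 1.15 ± 0.68 for MPP4 and 0.61 ± 0.70 for MPP2, and averaged 1.30 ± 0.35. The MPP2 value was 0.35 without IκB– MPP2 replicate 3 and 0.88 without IκB– MPP2 replicate 1. The MPP3 value was 2.20 without IκB– MPP3 replicate 1 and 1.34 without IκB– MPP3 replicate 2. Leaving out WT MPP4 replicate 1 gave an MPP4 value of 1.78, and leaving out replicate 2 of that group gave 0.73. Group means ran from 7.79 ± 1.66 CPM (n = 3) in WT HSC to 36.2 ± 19.8 CPM (n = 3) in IκB– MPP3.

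Nup93, whose region begins 35066 bp beyond the end of the Mt1 region, gave the level of an unrelated promoter in the same libraries. Its WT levels were 48.9, 66.5 and 99.0 CPM in HSC, 44.7, 69.7 and 49.5 in MPP2, 68.3 and 55.1 in MPP3, and 69.5, 62.6 and 71.6 in MPP4. From IκB– recipients they were 41.3, 62.5 and 62.1 in HSC, 55.6, 44.0 and 69.4 in MPP2, 77.5, 60.9 and 54.1 in MPP3, and 70.7, 60.8 and 77.0 CPM in MPP4. The recipient groups overlapped in every subset, with means of 64.1 ± 15.1 CPM (n = 11) in WT and 61.3 ± 11.5 CPM (n = 12) in IκB– recipients. Its mean log2 difference was -0.02 ± 0.16 (SE).

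Setting the metallothionein counts against Nup93 within each library needs no scaling by depth. Mt1 had 0.333 to 1.38 counts per Nup93 count in WT libraries (median 0.469) and 0.923 to 3.0 in IκB– libraries (median 1.37). Mt2 had 0.0952 to 0.40 in WT and 0.173 to 0.850 in IκB– libraries. Both ratios were higher in IκB– recipients with overlapping ranges. In a bulk sample, a larger share of cells with an open site and more opening per cell cannot be told apart.

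Per kilobase, which allows regions of different length to be set side by side, mean Mt1 accessibility was 109 CPM in WT and 242 in IκB– recipients. Mt2 had 48.6 and 127 CPM per kilobase, and Nup93 had 144 and 138. The median of 7617 regions near a gene end was 162 and 160. Mt1 thus stood at percentile 14.4 of those regions in WT and 83.4 in IκB– recipients, Mt2 at 0.368 and 27.4, and Nup93 at 37.5 and 34.4. By mean log2 difference Mt2 was 25th and Mt1 41st of 13325 tested regions, an order by size that includes the values used for the choice.

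Counted over replicates, 8 of 12 IκB– replicates lay above the highest WT replicate at Mt1, and 4 of 12 at Mt2. All 12 lay above the WT median at both, against 4 of 12 at Nup93. The share of all regions with counts like these was not worked out. The recipient difference also chose the locus, so nothing is read from these counts. Groups without overlap, all IκB– above all WT, occurred at Mt1 in MPP2 and MPP3, at Mt2 in HSC, MPP2 and MPP3, and at Nup93 in 0 subsets. Over all tested regions the same was seen in 4.11% for HSC, 6.18% for MPP2, 12.5% for MPP3, 6.0% for MPP4 and 0.0075% for all subsets pooled.

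By edgeR's quasi-likelihood test with Benjamini-Hochberg adjustment over all 13325 regions, Mt1 was the 1 region of the locus called higher in IκB– MPP3, where 0.0075% of regions were called higher, and Mt1 and Mt2 were called in the mean over subsets, where 0.608% were. In MPP4, 0.0075% of regions were called higher and none of the locus. In HSC and in MPP2, 0.0% of regions were called, with 841 and 487 of all regions at an unadjusted p under 0.05 in either direction and 0 called by DESeq2 in both. The Mt1 calls chose the locus, and nothing is read from any of these. The Mt1 call in MPP3 was lost without WT MPP3 replicate 1 and without WT MPP3 replicates 2 and 3, each of which leaves 1 WT sample assumed to vary like the other groups. The Mt2 call was lost in 19 of 23 fits that left out 1 replicate and with DESeq2's Wald test.

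**Figure D3:**
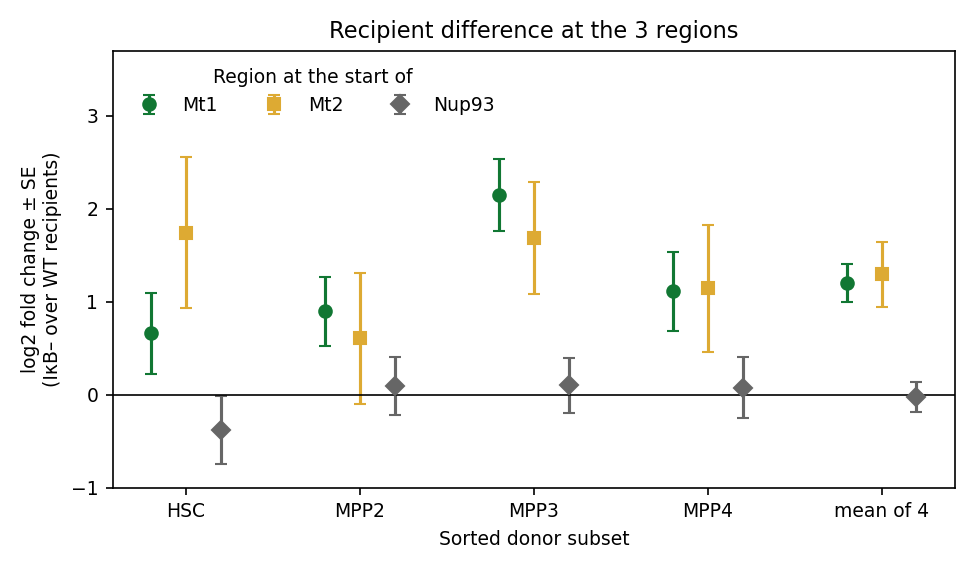
Fitted log2 difference in accessibility, IκB– minus WT recipients, for each region in each subset and averaged, with standard errors. Mt1 and Mt2 lie above 0 in every subset, with Mt1 highest in MPP3 at 2.15, and the Nup93 mean is -0.02.

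Differences between the sorted subsets, averaged over both recipient types, took no part in the choice and were tested. No subset difference passed the threshold at Mt1. MPP2 minus HSC was -0.13 on the log2 scale (95% interval -0.71 to 0.45, adjusted p = 0.933), in a contrast with 0.03% of all regions called. MPP3 minus HSC was -0.25 (-0.84 to 0.34, adjusted p = 0.795, 2.57% of regions called), and -0.13 without WT HSC replicate 1. MPP4 minus HSC was -0.19 (-0.80 to 0.43, adjusted p = 0.884, 1.27% called). Within these intervals HSC could be higher by up to 0.84 (over MPP3) or lower by up to 0.45 (under MPP2) on the log2 scale, so equal accessibility is not shown.

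Among the progenitors the picture at Mt1 was the same. MPP3 minus MPP2 was -0.12 (-0.66 to 0.42, adjusted p = 0.845), in the contrast with the most calls, 8.14% of regions. MPP4 minus MPP2 was -0.06 (-0.63 to 0.52, adjusted p = 0.962, 3.38% called), and MPP4 minus MPP3 was 0.06 (-0.51 to 0.64, adjusted p = 0.999). In that last contrast 0.0% of regions were called by edgeR or DESeq2, with 538 at an unadjusted p under 0.05. The joint test over the 4 subsets gave an adjusted p of 0.947, with 7.18% of regions called. At Mt1, 0 of 6 contrasts reached an unadjusted p under 0.05, and DESeq2 called 0.

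The averages hide opposite values by recipient at Mt1, given as a description because the MPP3 values took part in the choice. MPP3 minus HSC was -0.99 ± 0.47 (SE) within WT recipients and 0.49 ± 0.35 within IκB– recipients.

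The Nup93 region likewise had 0 of 6 subset contrasts called by edgeR or DESeq2, and 0 at an unadjusted p under 0.05. Its adjusted p ran from 0.599 to 0.999 over the 6 contrasts, and the joint adjusted p was 0.854. Mt2 passed the filter through IκB– MPP3 replicates 2 and 3 and IκB– MPP4 replicate 2, that is, through the subsets where it was high, so its subset differences are given as values without a test. The largest were MPP4 minus MPP2, 0.73 ± 0.50 (SE), and MPP3 minus MPP2, 0.67 ± 0.47. Without WT MPP4 replicate 1 the former was 0.41 and the latter 0.68. Among sorting markers, the Flt3 region ran from 51.5 CPM in HSC to 81.7 in MPP4, with a joint adjusted p of 0.408, and did not pass this test. The regions of Kit and Cd34 did not pass it either (joint adjusted p from 0.745 to 0.876). The region of Pf4, a platelet factor gene, did pass it (joint adjusted p = 0.0180), with its highest mean, 50.1 CPM, in MPP2, then 35.3 in HSC, 20.8 in MPP3 and 18.5 in MPP4. Itga2b, the other megakaryocyte marker with a region, ran differently. Its mean was lowest in MPP2 at 33.4 CPM and highest in HSC at 48.3, and it did not pass (joint adjusted p = 0.839).

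**Figure D4:**
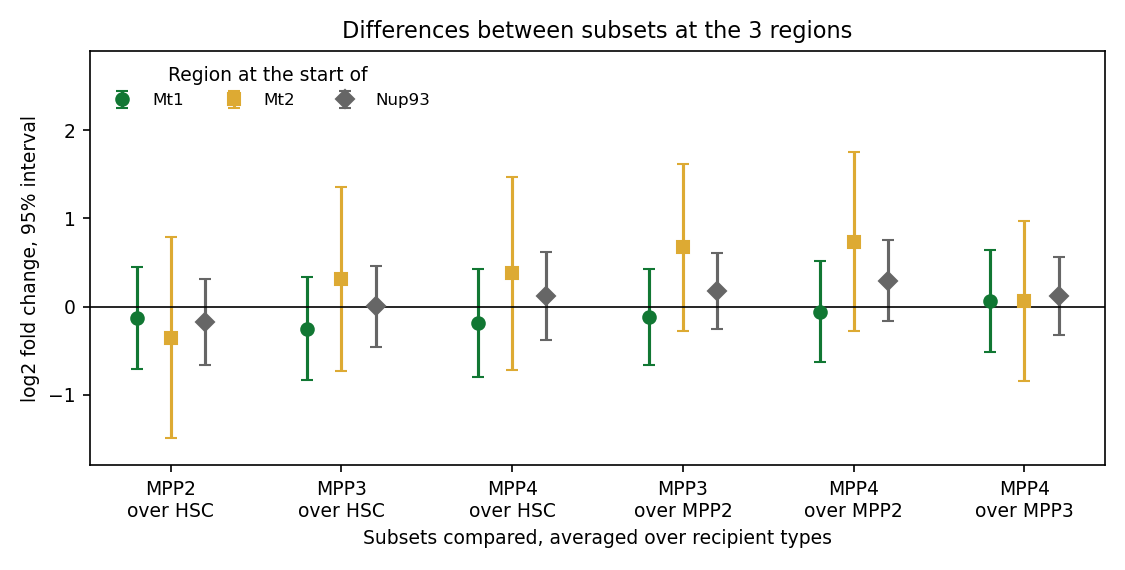
Log2 differences in accessibility between subsets, averaged over recipient types, at the 3 regions with 95% intervals. The Mt1 and Nup93 intervals include 0; those of Mt2 show its spread only, since its subset differences were not tested.

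Mt1 and Mt2 varied together over the replicates. Pearson's r between their log2 CPM was 0.606 over 23 replicates (Spearman's rho 0.645), the 60th highest of all tested regions with Mt1, and the points share the recipient groups. After each group's mean was subtracted it was 0.222, lower than with the group means left in. Between Mt1 and Nup93 r was -0.03. With the log2 of a library's total, r was -0.06 at Mt1 and -0.23 at Mt2.

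The 5 regions most like Mt1 over the 23 replicates are given as a description: the ranking includes the recipient difference that chose the locus, so it largely fixes their direction between recipients. They lay inside Il4ra, the interleukin-4 receptor chain gene (chr7:125561394-125561615, r = 0.799, 14.2 CPM in WT and 29.0 in IκB–), and at an end of Atxn10 (chr15:85336211-85336665, r = 0.774, 39.8 and 68.3 CPM). The next were inside Ptma, which encodes prothymosin alpha (chr1:86527975-86528397, r = 0.743, 47.2 and 94.6 CPM), and inside Rgs3, a regulator of G-protein signalling (chr4:62681528-62681874, r = 0.742, 26.6 and 65.1 CPM). The fifth lay outside genes, 6024 bp from Klf9, a glucocorticoid-induced transcription factor gene (chr19:23134882-23135202, r = 0.728, 28.1 and 79.9 CPM). The regions least like Mt1 were 1 inside Sox6 (chr7:115941879-115942116, r = -0.74, 49.2 and 21.2 CPM) and 1 outside genes on chromosome 6 (chr6:35988946-35989173, r = -0.72, 31.8 and 14.2 CPM). These are the extremes of many correlations and share the libraries of Mt1. With group means subtracted, r was 0.242 for the region near Klf9 and 0.536 to 0.665 for the other 4 of the most alike, and -0.40 and -0.35 for the least alike.

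**Figure D5:**
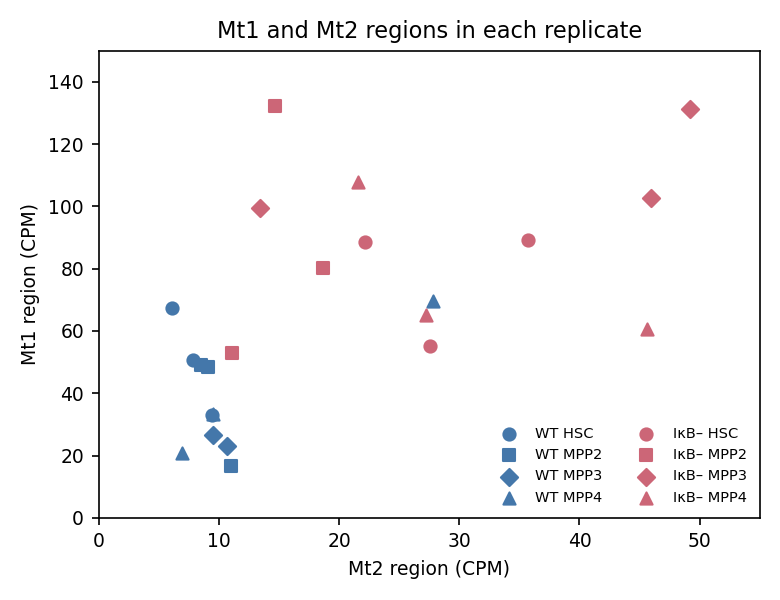
Accessibility (CPM) at Mt1 (vertical axis) against Mt2 (horizontal axis), 1 point per replicate, by recipient type and subset. All 12 IκB– replicates lie above the WT median on both axes, but the ranges overlap: WT MPP4 replicate 1, at 69.5 CPM for Mt1 and 27.8 CPM for Mt2, lies among them, and WT HSC replicate 1, at 67.3 CPM, does so for Mt1.

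A list of 41 genes was read beside the locus: 39 of metal handling, oxidant defence and metallothionein regulation, and the neighbours Nup93, itself a member of the locus, and Bbs2. Of the 39, 27 had a region within 1 kb of an end, with 32 regions (34 with the neighbours), and 12 had none, among them the glucocorticoid receptor Nr3c1, Hmox1, Mt3 and Mt4. For the mean recipient difference edgeR called 0 of the 32 and 0 of the 34, with 2 at an unadjusted p under 0.05 and 0 called by DESeq2. Over all regions 1.73% were called in either direction and 14.3% had an unadjusted p under 0.05, so a count of 0 among so few is near the background. Without the neighbours the median log2 difference was 0.13 and 25 of 32 were positive (0.11 and 25 of 34 with them), beside a median of -0.00 and 49.8% positive over all regions. Under the other scalings the median of the 32 was 0.11 to 0.14.

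None of the regulators with a region passed the test. Mtf1, the metal-sensing factor, had 1 region at 103 ± 26.2 CPM in WT (n = 11) and 105 ± 33.7 CPM in IκB– recipients (n = 12; log2 difference 0.12 ± 0.16 SE, adjusted p = 0.794) and another at 75.1 ± 16.1 and 89.9 ± 25.1 CPM (0.29 ± 0.16, adjusted p = 0.418). Usf1, an E-box factor, had 47.2 ± 16.1 and 62.1 ± 9.96 CPM (0.37 ± 0.18, adjusted p = 0.329). Its partner Usf2 had regions with log2 differences of 0.52 ± 0.26 (adjusted p = 0.360) and 0.18 ± 0.26 (adjusted p = 0.817). Sp1, which binds GC boxes, had regions at -0.05 ± 0.11 (adjusted p = 0.883) and -0.21 ± 0.19 (adjusted p = 0.678), the latter the lowest value of the list. Stat3 had 0.15 ± 0.14 (adjusted p = 0.709) and Nfe2l2, which binds antioxidant response elements, 0.11 ± 0.12 (adjusted p = 0.745); Sp1, Stat3 and Nfe2l2 were named after their values were seen. Slc30a1, the zinc exporter of the cell surface and itself a target of Mtf1, had 151 ± 25.5 and 170 ± 35.1 CPM (0.17 ± 0.12, adjusted p = 0.587). These differences were smaller than those at Mt1 and Mt2 in size, and the contrast between them was not tested.

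Between subsets edgeR called 0 of the 32 regions, and 0 of the 34 with the neighbours, in each of the 6 contrasts, with 0 to 3 at an unadjusted p under 0.05 and 0 called by DESeq2. Over all regions the share called ran from 0.0% (MPP4 minus MPP3) to 8.14% (MPP3 minus MPP2), and the share with an unadjusted p under 0.05 from 4.04% to 21.8%, in the same contrasts. In MPP3 minus MPP2, the contrast with the most calls over all regions, 22 of 32 were positive with a median of 0.20 (24 of 34 and 0.18 with the neighbours), beside a median of 0.02 and 52.0% positive over all regions and 0.04 and 55.5% over regions near a gene end. There the region shared by Slc39a7, which releases zinc from the endoplasmic reticulum, and Rxrb had 0.77 ± 0.26 (SE) and did not pass in the main fit (adjusted p = 0.0540). It passed under 4 alternative settings, of which 2 kept all 24 libraries apart, with adjusted p from 0.00472 to 0.0495. The other region of Slc39a7 had 0.42 ± 0.35 (adjusted p = 0.519) in the main fit.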

How the data were processed

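The deposited table held counts of ATAC-seq reads in 13910 regions for 24 libraries, not normalised by the authors. Bowtie2, SAMtools, Picard, MACS2 2.1.0, deepTools and the build mm10 are named per the submitters' processing notes; how regions were merged and counted is not given in the sources used here. Mitochondrial regions, with 13496 to 17356 counts per library, stayed in the totals. The members, gene lists and tests were chosen with earlier results of these data known. Libraries alike within sampling noise were summed. Regions were kept by filterByExpr (minimum count 10), scaled by TMM and fitted as 8 group means with edgeR 4.0.16's robust quasi-likelihood model in R 4.3.3 (15 residual degrees of freedom), with adjustment over 13325 regions and a threshold of 0.05. Subset contrasts averaged both recipient types with equal weight. CPM use TMM-scaled totals. Genes, promoter sequences and distances come from RefSeq's GRCm38.p6 tables. Named are all regions of the interval, the 5 most and 2 least correlated with Mt1, and from the metal list any gene called plus Mtf1, Slc30a1, Nr3c1, Usf1 and Usf2. Alternatives were DESeq2 1.42.0 (size factors, Wald test), cyclic loess with limma 3.58.1, nuclear regions only, no filter, all libraries apart, a replicate block, leaving out each replicate and, added after seeing the data, the metal list without Nup93 and Bbs2. The fit was tested on simulated data.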

Additional observations from a re-analysis of the deposited data

How the results depend on the processing

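Under 30 alternatives the recipient values of Mt1 kept their direction, with a mean of 1.10 to 1.33 when 1 replicate was left out and 1.19 to 1.22 otherwise. No subset contrast at Mt1 or Nup93 was called under any alternative, and the smallest adjusted p at Mt1 was 0.665. Small differences changed sign when 1 replicate was left out: at Mt1, MPP2 minus HSC ran from -0.24 to 0.056, MPP4 minus HSC from -0.42 to 0.015, MPP3 minus MPP2 from -0.29 to 0.0039, MPP4 minus MPP2 from -0.30 to 0.14 and MPP4 minus MPP3 from -0.18 to 0.26, while MPP3 minus HSC kept its sign at -0.35 to -0.13. At Mt2, MPP4 minus MPP3 ran from -0.27 to 0.27 and was -0.25 under cyclic loess. At Nup93, MPP3 minus HSC, 0.0028 in the main fit, ran from -0.074 to 0.16, and was -0.00274 with DESeq2 size factors, -0.00332 with DESeq2's Wald test and -0.00684 with nuclear regions only. The causes were not tested. Leaving Nup93 and Bbs2 out of the metal list, chosen after seeing the data, changed no count of calls. From the list, 0 regions were called for MPP3 minus MPP2, against 1 under cyclic loess, 1 without a filter, 1 with all libraries apart and 2 with all libraries apart and the replicate block together (Slc39a7, as with libraries apart alone, and Slc39a3).

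The labels number the replicates 1 to 3 in every group but do not say what a number shares. Same-numbered libraries of different groups deviated together (median r 0.148 over 84 pairs, from -0.05 to 0.406; 52 pairs above 0.1), and 24 of 24 libraries correlated best with their own number, a hint from the data and not from the design. Pairs of different numbers from different groups had a median r of -0.056, with 2 of 168 above 0.1. Since not every same-numbered pair passed 0.1, the numbers were not used as pairs. Standard errors and p-values of the main fit thus treat same-numbered libraries as independent, which was not shown. The block was fitted with all 24 libraries apart, so 2 choices differ from the main fit. With the replicate block, Mt1 had MPP3 minus HSC at -0.22 (adjusted p = 0.727) and a mean recipient difference of 1.21, and neither Mt1 nor Nup93 changed its call between subsets. Counts of called regions, in the order main fit, libraries apart, and libraries apart with the block, were 231, 287 and 481 for the mean recipient difference; 4, 4 and 31 for MPP2 minus HSC; 343, 403 and 817 for MPP3 minus HSC. For MPP4 minus HSC they were 169, 184 and 406, for MPP3 minus MPP2 1085, 1294 and 2192, for MPP4 minus MPP2 450, 493 and 862, and for MPP4 minus MPP3 0, 0 and 2. Cyclic loess gave 11 for MPP2 minus HSC, and DESeq2's Wald test gave 147 for the mean recipient difference. Leaving out 1 replicate gave 53 to 442, 1 to 21, 175 to 796, 59 to 287, 597 to 1583, 189 to 734 and 0 to 0 in the same order of contrasts. Depth limits Mt2 most, with at most 5 counts in a WT library.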
